A study of Sus scrofa with 14 samples.

Results

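The 10 genes described here move or sense calcium in the pig mammary gland, or encode the hormone-like peptide that the gland sends out to draw calcium from bone. They were listed by symbol for their roles, by a rule that uses no expression value but with earlier results of these data known: the plasma membrane calcium pumps ATP2B1, ATP2B2 and ATP2B4, the secretory pathway pumps ATP2C1 and ATP2C2, the endoplasmic reticulum pump ATP2A2, the store-operated channel ORAI1 with its sensor STIM1, the calcium-sensing receptor CASR, and PTHLH. All 10 were found among the 30071 gene identifiers of the deposited tables, in each of the 14 libraries. The study profiled single nuclei of snap-frozen mammary gland from multiparous sows at 5 stages, which were day 90 of gestation (G90), days 0 and 20 of lactation (L0 and L20), and days 2 and 7 of natural involution after suckling had ended (PI2 and PI7). There were 2 gland libraries per stage. It added 1 spatial section each at G90 and PI2, and 1 library of cells from fresh colostrum (L0) and 1 from mature milk (L20), which the labels also tag as mammary gland. All animals were untreated, and the labels do not say which sow gave which library. A gland library is therefore the replicate below, and p-values measure the spread between these libraries.

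Milk carries far more calcium than blood plasma, and the secretory epithelial cell has to move it without letting calcium rise in its own cytoplasm. Calcium enters the cell at its basal side and is pumped into the Golgi by secretory pathway pumps, where it joins casein micelles, or is expelled across the apical membrane by the plasma membrane pump PMCA2, the product of ATP2B2, which is known for its abundance in the lactating gland. The calcium-sensing receptor on the epithelium reads circulating calcium and, in the lactating gland of other species, restrains the release of parathyroid hormone-related protein, the product of PTHLH.

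The 10 genes lie on 5 chromosomes of Sscrofa11.1 by the RefSeq annotation. ATP2B1 lies at chr5:92935688-93061406, ATP2B2 at chr13:66526508-66897125 and ATP2B4 at chr9:64336354-64445669. ATP2C1 lies at chr13:1461562-1580035, ATP2C2 at chr6:4237331-4313273 and ATP2A2 at chr14:31674659-31744981. ORAI1 lies at chr14:31012212-31028008, STIM1 at chr9:6066612-6270090, CASR at chr13:138279785-138364934 and PTHLH at chr5:45750968-45763421. At 3 of these loci another annotated gene overlaps: LOC106507543 on the opposite strand of ATP2B1 (2093 bases), MIR885 on the same strand as ATP2B2 (80 bases) and ANAPC7 on the opposite strand of ATP2A2 (253 bases). Reads from a gene and an overlapping partner could not be told apart from the tables.

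The 250 bases before the annotated start are shown for 3 members, ATP2B2 because its level differed between stages, ATP2C2 because its level was highest in luminal nuclei, and PTHLH because its level varied most between libraries. They run 5′ to 3′ on the strand of the gene, with the last base next to the annotated start. Capitals mark the GC box, GGGCGG read on either strand, whose matches touch or overlap in places.
ATP2B2 (chr13:66897126-66897375, minus strand): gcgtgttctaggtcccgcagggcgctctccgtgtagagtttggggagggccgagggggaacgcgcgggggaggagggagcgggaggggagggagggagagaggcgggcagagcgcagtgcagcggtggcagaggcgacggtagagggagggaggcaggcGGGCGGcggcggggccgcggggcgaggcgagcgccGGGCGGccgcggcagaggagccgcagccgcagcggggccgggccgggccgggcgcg
ATP2C2 (chr6:4313274-4313523, minus strand): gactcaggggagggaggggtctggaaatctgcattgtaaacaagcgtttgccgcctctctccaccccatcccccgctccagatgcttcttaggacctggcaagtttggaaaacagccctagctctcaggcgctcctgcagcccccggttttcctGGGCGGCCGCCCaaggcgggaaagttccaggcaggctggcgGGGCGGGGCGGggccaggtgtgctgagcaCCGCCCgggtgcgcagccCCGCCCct
PTHLH (chr5:45750718-45750967, plus strand): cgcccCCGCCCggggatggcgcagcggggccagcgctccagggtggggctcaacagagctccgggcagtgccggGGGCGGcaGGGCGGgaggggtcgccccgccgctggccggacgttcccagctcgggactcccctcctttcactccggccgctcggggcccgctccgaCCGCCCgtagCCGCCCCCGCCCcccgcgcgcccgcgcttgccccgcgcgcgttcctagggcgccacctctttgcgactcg
The windows of ATP2B2, ATP2C2 and PTHLH held 79.6%, 66.8% and 80.0% G or C, against a median of 57.6% over 19569 windows of the same length, and 2, 6 and 6 GC boxes. Of the 10 members, 8 lay above that median, and all but CASR, whose window held 34.8% G or C, had at least 1 GC box, against 45.9% of all windows. The letters TTCNNNGAA, a core sequence bound by STAT factors of the prolactin pathway, were in the window of 0 of 10 members and in 6.12% of all windows. These matches describe letters in a window and no binding was measured.

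The gland libraries held 128233 barcodes, of which 126833 nuclei passed the limits of 300 genes and 25% mitochondrial UMIs (unique molecular identifiers, each taken as 1 captured RNA molecule). Total UMIs per library ran from 18962138 to 53165191 and the median per nucleus from 1382 to 2496. Nuclei were assigned to 9 classes by marker genes, which took in 105615 nuclei (83.3%) and 72228 luminal nuclei. All 12 luminal markers in the tables were highest in the luminal class, and of the other classes only T and NK cells (9 of 10) and B and plasma cells (5 of 7) had markers that were higher elsewhere. The same markers assigned the nuclei, so this is no independent check of the classes. Of the luminal nuclei, 10276 rested on exactly 2 markers and 9907 had a second class with 1 marker less. Luminal nuclei were 13.2% of the assigned nuclei in replicate 2 of L20 and 95.3% in replicate 2 of L0. Casein transcripts took 0.381% and 0.433% of UMIs at L0 but 0.00398% and 0.0502% at L20, so that both lactation day 20 libraries held little milk protein RNA for their label. Gland libraries shared at most 1.23% of barcodes with another, the milk libraries 1.52%, and both sections use the same set of spot positions.

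ATP2B2, the apical milk pump of the epithelium, was the only member called between stages by edgeR, as higher on the day of farrowing than in the mean of the other stages. In luminal nuclei its level, given as UMIs of the gene per 1000000 UMIs of the luminal nuclei of a library (CPM), was 21.8 and 97.7 (G90), 388 and 219 (L0), 143 and 69.7 (L20), 8.87 and 30.4 (PI2) and 24.7 and 29.7 (PI7). Both L0 libraries were above the other 8, which reached 143 CPM, both L20 libraries were above the 4 involution libraries, and G90 overlapped L20, PI2 and PI7. The order at L0 was not particular to luminal nuclei. In endothelial cells both L0 libraries were also above the others, at 133 and 73.6 CPM against at most 43.2 CPM. In fibroblasts and myoepithelial cells replicate 1 of L0 was highest, at 118 and 159 CPM, but replicate 2 was at 0 and 34.3 CPM. In T and NK cells replicate 2 of L20 was highest, at 68.5 CPM. The part of free RNA in these levels was not tested. At least 1 ATP2B2 UMI was found in 45.6% and 25.9% of luminal nuclei at L0 and in 1.76% to 19.4% in the other libraries. The comparison of L0 with the mean of the other 4 stages was chosen with earlier results of these data known. In the edgeR fit over 20052 genes, the luminal L0 level of ATP2B2 exceeded that mean by 3.14 on the log2 scale (SE 0.58, adjusted p = 0.0274). It was the only member of 10 past the threshold of an adjusted p under 0.05 and a log2 change over 1, a threshold that 1.92% of all genes passed (1.72% as higher at L0). DESeq2 split the genes it called more evenly, with 837 higher and 789 lower against 345 and 39 in edgeR, and called 3 members, ATP2B2 (3.13, adjusted p = 0.000208), ATP2C2 (1.81, adjusted p = 0.0111) and PTHLH (−2.96, adjusted p = 0.0156). The call rested on few libraries. The value was 2.72 without replicate 1 of L0 and 3.48 without replicate 2 of L0. It was 3.07 without replicate 1 of PI7 and 3.10 without replicate 2 of PI7. The call did not hold in any of these fits. Each left 1 library in a stage, so that the spread came from the other stages, and only the size is given. With the L20 libraries, low in casein, left out of the mean, the difference was 3.58, adjusted p = 0.0276.

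**Figure D1:**
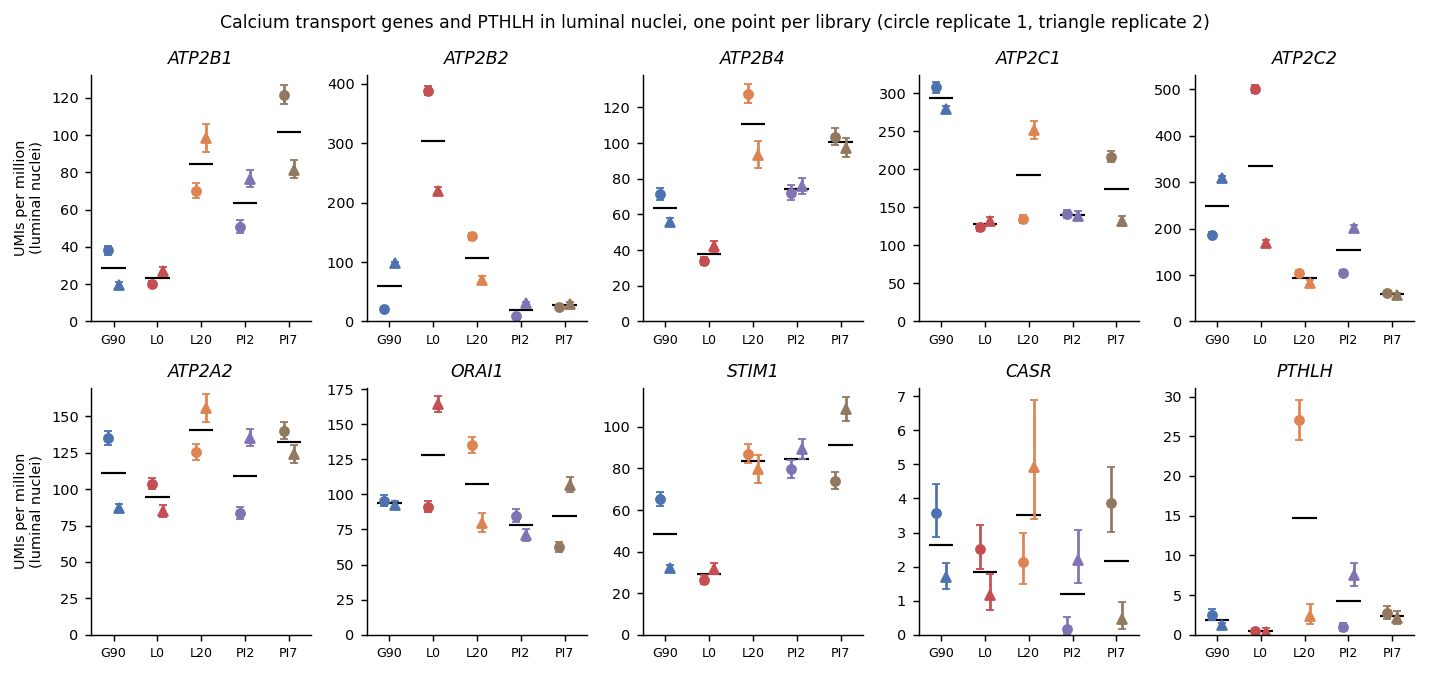
Level of each member in luminal nuclei (CPM) by stage, with 1 point per gland library, its exact 95% Poisson interval, and a bar at the mean of the 2 libraries of a stage. The L0 points of ATP2B2, at 219 and 388 CPM, sit above all others, and those of ATP2B4, STIM1 and PTHLH sit below all others of the same gene. These CPM lack the library scaling of the fit.

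The other plasma membrane pumps did not pass the test at L0. ATP2B1, the pump found in nearly all cells, was at 38.2 and 19.7 (G90), 20.0 and 27.0 (L0), 70.1 and 98.5 (L20), 50.8 and 76.5 (PI2) and 122 and 81.6 (PI7) CPM. The L0 libraries overlapped G90 only, and the difference of L0 from the mean of the other stages was −0.99 (SE 0.37, adjusted p = 0.202). ATP2B4, another pump of the family, was at 33.6 and 42.1 CPM at L0 and between 56.0 and 128 CPM in the other 8 libraries. The CPM did not overlap, and the fitted difference was −0.77 (SE 0.35, adjusted p = 0.301).

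The balance among these pumps can be given as the share of ATP2B2 in the UMIs of ATP2B1, ATP2B2 and ATP2B4 of luminal nuclei, a measure chosen after the values were seen and given without a test. UMIs were not divided by transcript length, so the share compares libraries and not pumps. It was 16.6% and 56.4% (G90), 87.9% and 76.1% (L0), 42.0% and 26.7% (L20), 6.72% and 16.6% (PI2), and 9.88% and 14.2% (PI7). The L0 mean was 82.0% ± 8.35 (SD, n = 2) and that of the other libraries 23.6% ± 17.2 (SD, n = 8), a difference of 58.3 percentage points. The 2 G90 libraries lay far apart, and only the second of them, which also had the higher casein share of 0.330% against 0.0267%, came near L0. Whether the casein content of a library had a part in this was not tested.

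**Figure D2:**
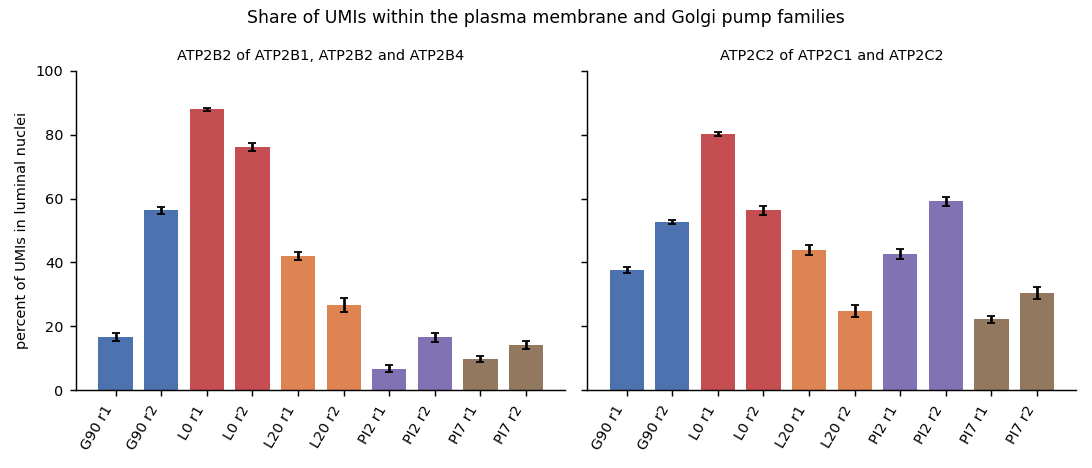
Share of ATP2B2 in the UMIs of the 3 plasma membrane pumps and of ATP2C2 in those of the 2 secretory pathway pumps (percent of luminal UMIs of the family), 1 bar per gland library with its exact 95% binomial interval, which covers counting error only. ATP2B2 made up 76.1% and 87.9% at L0 and at most 56.4% elsewhere, while the L0 points of ATP2C2, at 80.2% and 56.3%, overlap PI2 (59.1% in replicate 2) and lie above G90, L20 and PI7.

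Among the Golgi pumps, ATP2C2 reached its highest level in 1 of the L0 libraries and its lowest in the PI7 libraries. ATP2C2 encodes SPCA2, a pump of secretory epithelia, and ATP2C1 its widely expressed relative SPCA1. Luminal ATP2C2 was at 186 and 309 (G90), 500.1 and 169.9 (L0), 105 and 82.8 (L20), 105 and 201 (PI2) and 61.6 and 57.6 (PI7) CPM. The highest value was replicate 1 of L0, but replicate 2 of L0 lay below both G90 libraries and replicate 2 of PI2, so that L0 overlapped G90 and PI2. The L20 libraries lay below both L0 and both G90 libraries, and the PI7 libraries below all others. The difference of L0 from the other stages was 1.82 (SE 0.44, adjusted p = 0.0641), a difference that DESeq2 called. It was 0.91 without replicate 1 of L0 and 1.92 without replicate 2 of PI2, fits that each left 1 library in a stage. ATP2C1 was at 308 and 279 (G90), 123 and 132 (L0), 134 and 252 (L20), 141 and 139 (PI2) and 216 and 132 (PI7) CPM, highest in both G90 libraries. Its difference of L0 from G90 was −0.83 (SE 0.38, unadjusted p = 0.0513, adjusted p = 0.454). The share of ATP2C2 in the UMIs of both pumps was 80.2% and 56.3% at L0 and 22.2% to 59.1% in the other 8 libraries. ATP2A2, the SERCA2 pump that refills the endoplasmic reticulum, moved least, between 83.4 and 156 CPM. Its fitted difference at L0 was 0.03 (SE 0.32). By CPM it lay lower there, at 84.7 and 104 against a median of 130 in the other libraries, since the fit scales libraries and CPM do not.

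Neither the channel of store-operated entry nor its sensor passed the test between stages. ORAI1, the pore in the plasma membrane, was at 91.2 and 164 CPM at L0 and between 62.6 and 135 CPM in the other libraries, a range that overlapped (0.89, SE 0.40, adjusted p = 0.294). STIM1, which senses the calcium of the endoplasmic reticulum and opens ORAI1, was at 26.5 and 31.6 CPM at L0 and from 32.1 to 109 CPM elsewhere. Both L0 libraries were the lowest for STIM1 by CPM, which lack the library scaling of the fit. The nearest other library, replicate 2 of G90, was within 1 CPM of the higher of them, and the rank was not checked after scaling. The fitted difference did not pass (−0.95, SE 0.38, adjusted p = 0.238). CASR was sparse in luminal nuclei, from 0.175 to 4.92 CPM with every stage overlapping, and 0.53% of luminal nuclei had a UMI.

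PTHLH was low in most libraries and high in 1 of them. It was at 2.50 and 1.18 (G90), 0.438 and 0.387 (L0), 27.0 and 2.38 (L20), 0.934 and 7.51 (PI2) and 2.72 and 2.09 (PI7) CPM, from 11 and 7 UMIs at L0 and 441 and 16 at L20. Both L0 libraries were the lowest, and replicate 1 of L20 stood far above the rest, its own stage partner included. Other nuclei of replicate 1 of L20 held PTHLH too, and over all its nuclei the level was 25.2 CPM (541 UMIs). Macrophages there were at 11.3 CPM (5 UMIs), against at most 1.59 CPM in other libraries. Myoepithelial cells there were at 15.4 CPM (3 UMIs), below the 17.3 CPM (12 UMIs) of replicate 1 of G90. The part of RNA from outside the nuclei was not tested. In luminal nuclei the PTHLH difference of L0 from the mean of the others was −2.93 (SE 1.14, adjusted p = 0.221), and DESeq2 called it. L20 exceeded L0 by 4.92 (SE 1.34, adjusted p = 0.185), and by 1.82 without replicate 1 of L20, a fit with 1 L20 library left. In replicate 1 of L20, 3.95% of luminal nuclei had a PTHLH UMI. The share there was 1.77% in macrophages, 1.82% in myoepithelial cells, 1.67% in endothelial cells and 0.736% in fibroblasts. All 6 neutrophil markers in the tables were detected in luminal nuclei there, with a summed level of 73.4 CPM, against 2.19 to 137 CPM in the other 9 libraries. The 137 CPM, of replicate 1 of PI7, held 121 CPM of MMP9. CSF3R (10.7 CPM), S100A8 (5.32), S100A12 (11.6) and IL1R2 (24.7) were highest in replicate 1 of L20, while MMP8 and MMP9 were not. There 46 of 7941 luminal nuclei had 2 neutrophil markers, and they held 4 of the 441 PTHLH UMIs. The level without those nuclei was 27.0 CPM. The luminal gate had already left out nuclei with as many neutrophil as luminal markers. The part of neutrophil RNA in this level was not tested.

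Between successive stages, 0 of 10 members passed the edgeR threshold in any of the 4 comparisons. Over all genes the share passing was 0.00499% from G90 to L0 and 0% in each of the 3 later steps. At an unadjusted p under 0.05 the members numbered 1, 5, 1 and 1, out of 2219, 2599, 642 and 548 genes. From G90 to L0 this was ATP2B2 (2.55, SE 0.90, adjusted p = 0.310). From L0 to L20 they were PTHLH, ATP2C2 (−2.20, adjusted p = 0.206), ATP2B1 (1.38, adjusted p = 0.238), ATP2B4 (1.16, adjusted p = 0.292) and STIM1 (1.11, adjusted p = 0.344). From L20 to PI2 it was ATP2B2 (−2.33, adjusted p = 0.947), and from PI2 to PI7 ATP2C2 (−1.66, adjusted p = 1). DESeq2 called 2 members from L0 to L20, ATP2C2 and PTHLH, and 0 in the other 3 comparisons. With 2 libraries per stage the fit recovered 36% of simulated log2 changes of 3 and 1% of changes of 1.5 between G90 and L0. A member that did not pass is thus not shown to be level between stages.

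Across the gland, luminal nuclei had more ATP2C2, ORAI1 and ATP2B2 and less ATP2B1 than the mean of the other classes, and for ATP2B2 this held in some libraries only. The mean luminal ATP2C2 level over 10 libraries was 178 ± 137 CPM (SD), and the class means elsewhere ran from 23.2 in mural cells to 52.5 in myoepithelial cells. With library as a block, luminal ATP2C2 exceeded the mean of the other 8 classes by 2.63 (SE 0.14, adjusted p = 1.57e-28). ORAI1 was at 98.3 ± 30.6 CPM in luminal nuclei and 12.7 to 53.4 CPM in the other classes, a difference of 1.81 (SE 0.17, adjusted p = 5.51e-16). ATP2B2 was at 103 ± 120.2 CPM in luminal nuclei, a spread wider than the mean that came from the L0 libraries, and its difference was 1.27 (SE 0.24, adjusted p = 3.34e-06). Without the 2 L0 libraries it was 0.82 (adjusted p = 0.00257), under the fold threshold, and the mean luminal level was 53.3 CPM. It was 2.37, adjusted p = 8.03e-06 without replicate 2 of L20. Within libraries, luminal ATP2C2 was above every other class in 10 of 10, ORAI1 in 8 and ATP2B2 in 5. Luminal ATP2B2 was below 6 other classes in replicate 1 of G90 (21.8 CPM, against 50.4 in T and NK cells) and below 7 in replicate 1 of PI7 (24.7 CPM, against 51.1). ATP2B1 had its lowest class mean in luminal nuclei (60.4 ± 35.0 CPM, difference −1.82, SE 0.19, adjusted p = 1.43e-13).

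Of the 8 members that passed the filter on low counts (all but CASR and PTHLH), 3 were thus higher and 1 lower in luminal nuclei, where 23.4% of 11781 genes passed, 10.6% as higher and 12.8% as lower. The median of all genes in this comparison moved with the scaling, being 0.19 with edgeR (1250 genes higher and 1505 lower) and −0.14 with DESeq2 (749 higher and 2224 lower). Relative to the median, ATP2C2 was 2.44 and 2.45, ORAI1 1.62 and 1.64, ATP2B2 1.08 and 1.17, and ATP2B1 −2.01 and −2.01 in edgeR and DESeq2. Milk RNA was also found outside luminal nuclei. In replicate 1 of L0, CSN2, which encodes beta-casein, was at 901 CPM in T and NK cells, 1727 CPM in fibroblasts and 1024 CPM in macrophages, against 1980.1 CPM in luminal nuclei. ATP2C2 was at 145, 139.5 and 94.8 CPM in the same classes of that library, each the highest of 10 libraries. The part of free RNA in the levels of ATP2C2 and ATP2B2 outside the epithelium was not tested.

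**Figure D3:**
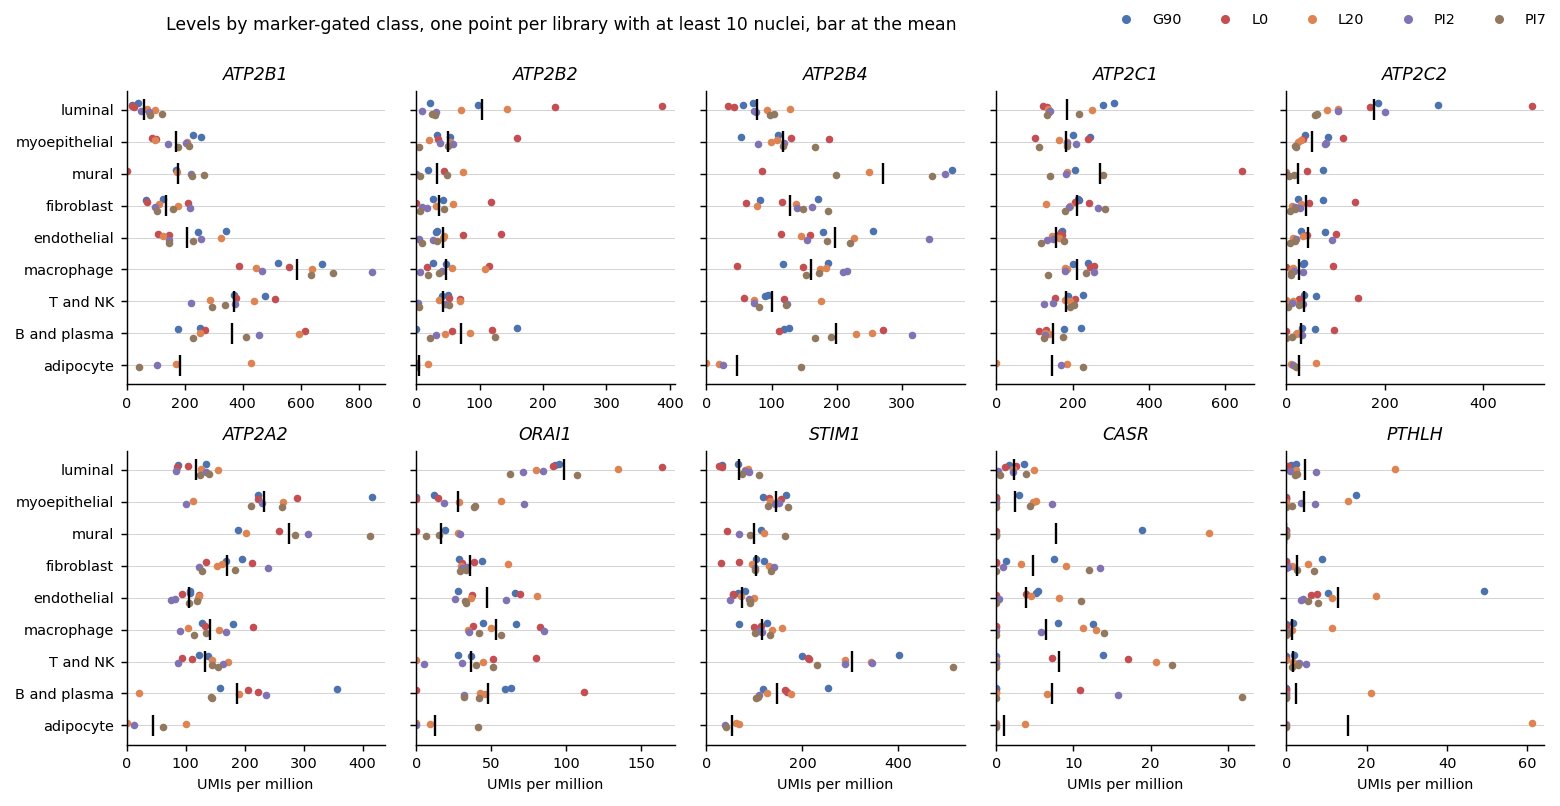
Level of the 10 members (CPM) in 9 marker-defined classes, with 1 point per library that held at least 10 nuclei of the class, colored by stage, and a bar at the mean over libraries. ATP2C2 and ORAI1 have their highest class mean in luminal nuclei (178 and 98.3 CPM), ATP2B1 in macrophages (589 CPM) and STIM1 in T and NK cells (303 CPM).

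ATP2B1 and ATP2B4 had their highest class means in macrophages and in mural cells. ATP2B1 reached 589 ± 139 CPM (SD, n = 10) in macrophages, from 389 to 848 CPM, so that every macrophage value lay above every luminal value. It was higher there than in the mean of the other classes by 1.74 (SE 0.16, adjusted p = 2.44e-16), 1 of 8 tested members where 10.4% of genes passed as higher and 19.6% in either direction. T and NK cells (369.8 ± 89.9 CPM) and B and plasma cells (363 ± 163 CPM, n = 9) came next and overlapped each other. ATP2B4 was highest in mural cells, the smooth muscle and pericytes of vessels, at 270.4 ± 115 CPM (SD, n = 6), followed by B and plasma cells and endothelium at 198 and 198 CPM, which overlapped it. Its mural difference was 1.16 (SE 0.22, adjusted p = 1.58e-05).

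ATP2A2, whose product drives calcium reuptake in muscle, also had its highest mean in mural cells, at 276 ± 81.5 CPM, next to 233 ± 89.1 CPM in the contractile myoepithelial cells. The mural difference was 1.06 (SE 0.19, adjusted p = 8.83e-06), which made 2 of 8 members higher in mural cells where 7.44% of genes passed as higher and 11.2% in either direction. The median of all genes in this comparison was −0.17 in edgeR (877 higher, 447 lower) and near 0 in DESeq2 (1090 higher, 243 lower), and ATP2B4 and ATP2A2 passed in both. Both mural calls lay close to the fold threshold, and ATP2A2 ranged from 0.87 to 1.35 as libraries were left out. With no filter on low counts ATP2B4 was 0.97 and ATP2A2 0.87, and with nuclei left out that had 2 markers of a second class they were 0.81 and 0.91, so that neither was called in either setting. The myoepithelial difference of ATP2A2 was 0.71 (SE 0.14, adjusted p = 5.48e-05), under the fold threshold. ATP2C1 had the evenest distribution, with class means from 146 to 273 CPM and no class past the threshold.

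STIM1 was highest in T and NK cells, where store-operated entry serves receptor signalling, at 303 ± 100.03 CPM (SD, n = 10) against 52.4 to 148 CPM in the other classes. The lowest T and NK library was at 199 CPM and the highest luminal library at 109 CPM. The difference was 1.58 (SE 0.12, adjusted p = 4.94e-20), 1 of 8 members where 7.98% of genes passed as higher and 16.7% in either direction. ORAI1, its channel, was at 36.6 ± 23.2 CPM in T and NK cells, below the luminal level, with a difference of 0.12 (adjusted p = 0.716) from the mean of the other classes. Thus the 2 partners of store-operated entry had their highest class means in different classes, ORAI1 in luminal nuclei and STIM1 in T and NK cells.

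In adipocytes, 4 of 8 members were lower than in the mean of the other classes, where 9.79% of genes passed as lower and 18.2% in either direction. They were ATP2B4 (−2.15, SE 0.41, adjusted p = 2.33e-05), ORAI1 (−1.56, SE 0.53, adjusted p = 0.0254), ATP2A2 (−1.05, SE 0.30, adjusted p = 0.00648) and STIM1 (−1.04, SE 0.28, adjusted p = 0.00373). Over the alternative settings ATP2B4 ran from −2.75 to −1.61, ORAI1 from −1.81 to −0.46, ATP2A2 from −2.58 to −0.17 and STIM1 from −1.80 to −0.62. Only 434 adipocyte nuclei in 4 libraries entered, 387 of them in replicate 2 of L20, and none were of G90 or L0. In replicate 1 of L20, of PI2 and of PI7, ORAI1 had 0, 0 and 2 UMIs and ATP2A2 0, 1 and 3. Without replicate 1 of PI2 1 member was called. In myoepithelial cells, fibroblasts, endothelial cells and B and plasma cells 0 of 8 members passed in edgeR or DESeq2, where 14.4%, 11.5%, 13.2% and 12.5% of genes passed. At an unadjusted p under 0.05 there were 3, 3, 4 and 4 of 8 members and 4145, 4078, 4700 and 3871 of 11781 genes. The split of all genes called moved with the tool, from 724 higher and 754 lower in edgeR to 1241 and 309 in DESeq2 for B and plasma cells, and from 1146 and 203 to 1089 and 374 for fibroblasts, where most were higher in both.

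CASR and PTHLH had too few UMIs for the class test. CASR was at 0.929 (adipocytes) to 8.16 CPM (T and NK cells) in class means, with 0 UMIs in at least 3 libraries of every class except luminal. The share of nuclei with a CASR UMI was higher in macrophages than in luminal nuclei in 6 of 10 libraries, as in replicate 2 of L20 (3.38% against 1.70%), which held 2071 of the 4424 macrophages. In the other 4 libraries none of 39 to 443 macrophages had one. The share was higher in T and NK cells than in luminal nuclei in 5 of 10 libraries, as in replicate 1 of PI7 (2.74% against 1.19%), and 0 in the other 5. This was not particular to immune cells. In replicate 1 of PI7 it was 2.01% in fibroblasts, 2.04% in endothelial cells and 3.68% in B and plasma cells. In replicate 2 of L20 it was 1.97% in fibroblasts and 1.48% in endothelial cells. Fibroblasts, endothelial cells, macrophages and T and NK cells of replicate 2 of PI7 all had 0 CASR UMIs. Outside the luminal nuclei, endothelial cells, the lining of vessels, were the class with at least 1 PTHLH UMI in all 10 libraries. There it was at 49.2 and 10.4 (G90), 7.72 and 6.13 (L0), 22.3 and 11.3 (L20), 4.10 and 3.76 (PI2) and 5.32 and 7.84 (PI7) CPM. The 2 G90 libraries differed more than the other stages did among themselves. The mean was 12.8 ± 13.9 CPM (SD, n = 10), against 4.71 ± 8.09 CPM in luminal nuclei. Within libraries the endothelial level was above the luminal one in 8 of 10, all but replicate 1 of L20 and replicate 2 of PI2, a count given without a test. The endothelial values of replicate 2 of L0 and replicate 2 of PI2 were 1 UMI each, where 3 UMIs would be 18.4 and 11.3 CPM, and the other 8 libraries had 4 to 100.

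Within the luminal nuclei, hormone-sensing nuclei were defined by ESR1, PGR, FOXA1, AREG and TBX3 (1623 nuclei), progenitor nuclei by KIT, ALDH1A3, CD14 and SOX9 (13774), and 56831 remained. ATP2C2 was higher in hormone-sensing nuclei in 10 of 10 libraries. Its level there was 899 and 455 (G90), 633 and 214 (L0), 224 and 303 (L20), 734 and 317 (PI2) and 384 and 362 (PI7) CPM. In the remaining luminal nuclei it was 143 and 308 (G90), 496 and 171 (L0), 104 and 67.8 (L20), 71.0 and 198 (PI2) and 48.2 and 45.3 (PI7) CPM. The levels were closest in the L0 libraries and furthest apart, as a ratio, in replicate 1 of PI2 and both PI7 libraries, where the remaining nuclei had little ATP2C2, and this variation with stage was not tested. With library as a block the difference was 2.01 (SE 0.32, adjusted p = 2.26e-05) in a fit over 14165 genes, and without the block it was 1.41, adjusted p = 0.130. Median UMIs per nucleus ran from 3466 to 6321 in hormone-sensing nuclei and from 1519 to 3157 in the remaining ones, and the part of this depth in the subgroup was not tested.

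**Figure D4:**
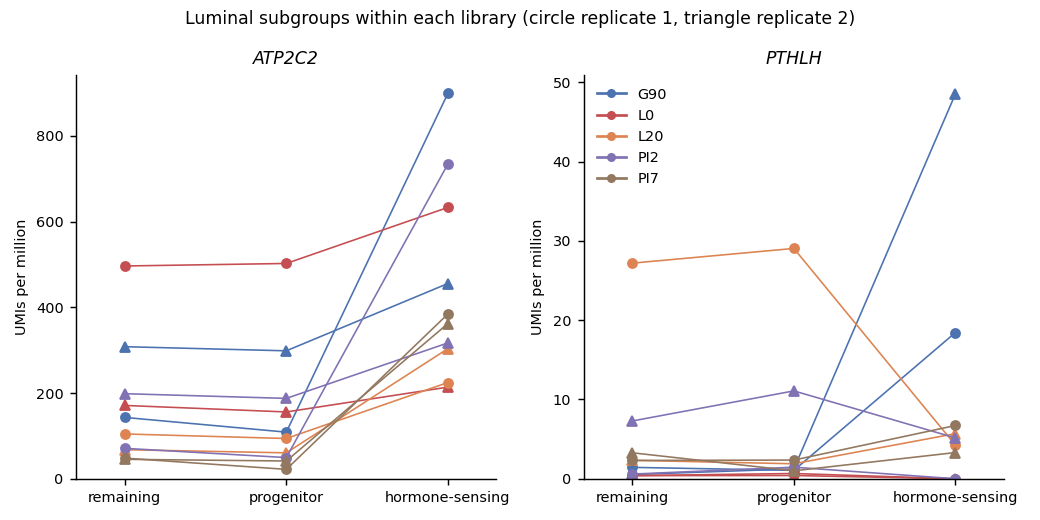
Level of ATP2C2 and PTHLH (CPM) in remaining, progenitor and hormone-sensing luminal nuclei, with a line joining the values of 1 library, colored by stage. ATP2C2 is higher in hormone-sensing than in remaining nuclei in all 10 libraries, and PTHLH in 5, of which both G90 libraries stand out at 18.4 and 48.6.

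PTHLH also passed in hormone-sensing nuclei, so that 2 of 9 tested members were higher, where 5.39% of genes passed as higher and 11.5% in either direction. The difference was 2.15 (SE 0.64, adjusted p = 0.0108), and it was widest in the G90 libraries. PTHLH was at 18.4 and 48.6 (G90), 0 and 0 (L0), 4.24 and 5.69 (L20), 0 and 5.15 (PI2) and 6.72 and 3.31 (PI7) CPM in hormone-sensing nuclei and at 1.44 and 0.540 (G90), 0.398 and 0.393 (L0), 27.2 and 2.33 (L20), 0.591 and 7.29 (PI2) and 2.31 and 3.28 (PI7) CPM in the remaining ones. It was higher in 5 of 10 libraries, among them replicate 2 of PI7 by 3.31 against 3.28 CPM. Hormone-sensing nuclei held 78 PTHLH UMIs over all 10 libraries, so the tally rests on few UMIs. The 0 UMIs of both L0 libraries and of replicate 1 of PI2 allow levels up to 5.99, 7.63 and 2.64 CPM (3 UMIs per library). Without replicate 1 of G90 the difference was 1.64, adjusted p = 0.0850, without replicate 2 of G90 it was 1.19, adjusted p = 0.102, and without the block it was 1.07, adjusted p = 0.584. Differences under the fold threshold were those of ATP2A2 (0.49, adjusted p = 0.000209), ATP2B4 (−0.61, adjusted p = 0.00150), ATP2B2 (−0.54, adjusted p = 0.0244) and ORAI1 (−0.40, adjusted p = 0.0119). ATP2B2 values lay lower in hormone-sensing nuclei in 8 of 10 libraries, the opposite side to ATP2C2. Progenitor nuclei had 0 of 9 members past the threshold in edgeR and DESeq2 and 0 at an unadjusted p under 0.05, where 0.0424% of genes passed.

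Milk cells gave 1 library per day and therefore no test. Of 17571 cells kept at L0 and 14514 at L20, 3295 and 1344 were luminal and 10557 and 6812 neutrophils. Intervals are exact 95% Poisson intervals, which cover counting error only. PTHLH in luminal milk cells was at 1.86 CPM (1.52 to 2.24) at L0 and 61.8 CPM (57.0 to 66.8) at L20, so that the L20 library was higher, as replicate 1 of L20 was among the gland libraries. It had 0 UMIs in the neutrophils of the L0 library, which allows up to 0.198 CPM, and 7 UMIs in those of L20. Luminal cells with at least 2 neutrophil markers, 2128 of 3295 at L0 and 241 of 1344 at L20, held 99 of 107 PTHLH UMIs at L0 and 417 of 621 at L20. Without them the levels were 0.846 and 48.8 CPM.

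ORAI1 in luminal milk cells was at 279.6 CPM (275 to 284) at L0 and 162 CPM (154 to 169.8) at L20, against 48.2 and 39.5 CPM in neutrophils. ATP2B2 was at 19.8 CPM (18.6 to 21.0) and 47.2 CPM (43.0 to 51.6), and at no more than 5.09 CPM in the 3 leukocyte classes. ATP2C2 was at 48.9 CPM (47.1 to 50.7) and 53.2 CPM (48.8 to 57.9). The share of luminal cells with a UMI went from 1.94% to 10.3% for PTHLH, from 21.4% to 14.0% for ATP2B2, from 37.7% to 11.8% for ATP2C2 and from 76.3% to 26.4% for ORAI1. When each cell was thinned to 1000 UMIs, which left out 92 cells at L0 and 106 at L20, these shares were 0.219% and 1.94%, 2.25% and 0.969%, 4.81% and 0.808%, and 20.9% and 7.03%. The shares for ATP2B2 and ATP2C2 ran against their CPM, and no order of the days is read for either gene. The class order of ATP2B1 and STIM1 in the gland was also seen here. ATP2B1 was at 366 and 423 CPM in macrophages and 22.5 and 18.7 CPM in luminal cells, and STIM1 at 37.3 and 50.4 CPM in T and NK cells and 6.0 and 3.48 CPM in luminal cells.

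**Figure D5:**
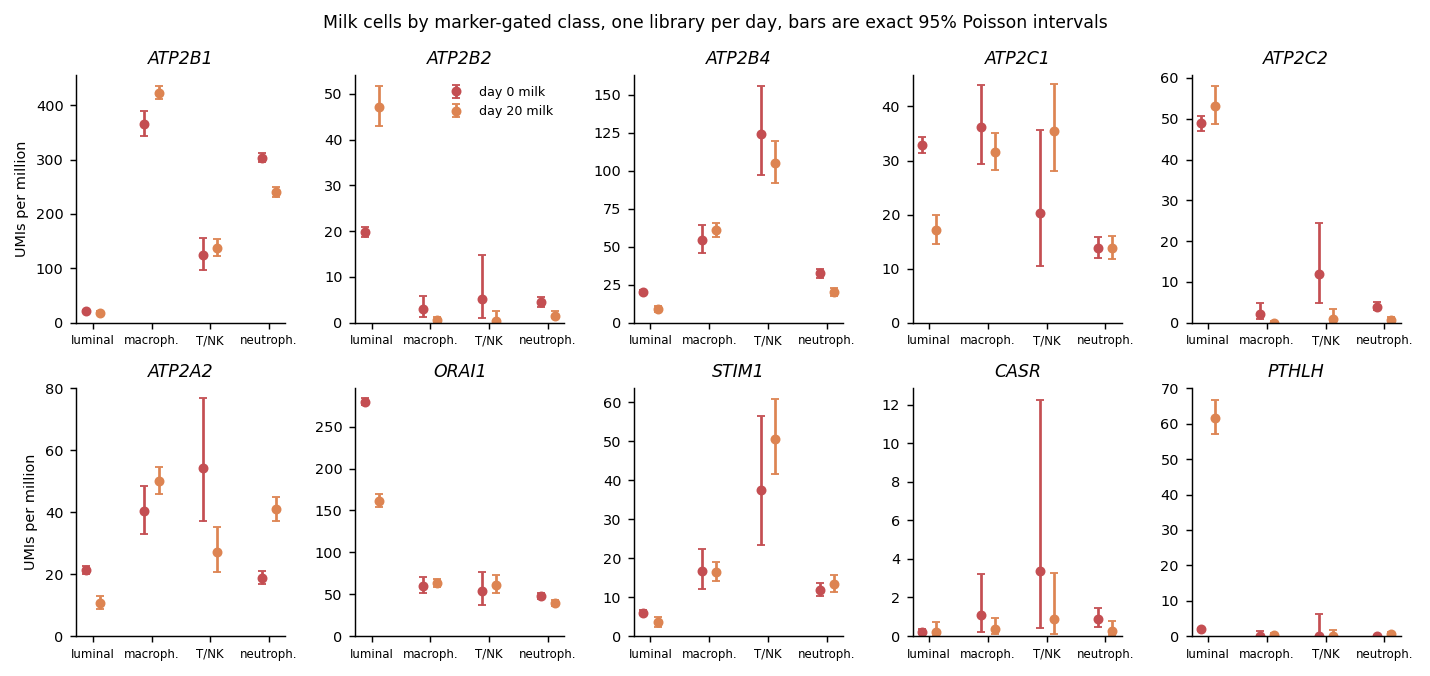
Level of each member (CPM) in luminal cells, macrophages, T and NK cells and neutrophils of the colostrum (L0) and mature milk (L20) libraries, with exact 95% Poisson intervals. PTHLH in luminal cells lies at 1.86 CPM at L0 and 61.8 CPM at L20, and ATP2B1 lies higher in every leukocyte class than in luminal cells on both days.

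The sections, whose spots can hold several cells, gave 4718 spots at G90 and 2198 at PI2. Over all spots ORAI1 was at 96.9 and 61.2 CPM, ATP2C1 at 80.0 and 31.9 CPM, ATP2C2 at 56.9 and 23.0 CPM, and ATP2A2 at 78.1 and 40.4 CPM, each lower in the PI2 section. STIM1 went the other way, at 11.4 and 32.5 CPM, and its luminal level in the gland libraries was 65.2 and 32.1 CPM at G90 and 79.6 and 89.3 CPM at PI2. ATP2B2 had 12 and 15 UMIs, of 42815421 and 17906403 UMIs in the sections before limits on spots. It was thus sparse in both and also higher in the PI2 section. Its luminal level in the gland libraries was far higher, at 21.8 and 97.7 CPM at G90 and 8.87 and 30.4 CPM at PI2. The gland libraries are of nuclei and the sections of tissue, and the part of the method in this gap was not tested. PTHLH had 49 and 9 UMIs, and CASR 0 in either section, which allows up to 0.0701 and 0.168 CPM. In tissue, fewer cells of a type and less RNA per cell cannot be told apart.

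Of 52 other calcium genes listed by role, 46 were in the tables. In luminal nuclei 44 were tested between stages, and 1 was lower at L0 than in the mean of the other stages and 0 higher, where 1.92% of all genes passed in either direction. It was TRPV5, an epithelial calcium entry channel, at −2.53 (SE 0.53) with an adjusted p of 0.0416, and 13 of the 44 had an unadjusted p under 0.05, as did 3434 of 20052 genes. Between classes 35 were tested. In luminal nuclei 5 were higher, the entry channels TRPV5 (2.02) and TRPM7 (1.24), the store release channels ITPR3 (1.21) and ITPR2 (1.21) and the vitamin D receptor VDR (2.01). In the same comparison, where 23.4% of all genes passed in either direction, 9 were lower. Among them were the store release channels RYR3 (−1.31) and ITPR1 (−1.24), so that 2 genes of this role were higher and 2 lower. Others were the sodium-calcium exchanger SLC8A1 (−2.88), the SERCA3 pump ATP2A3 (−1.42) and PTH1R (−2.26), the receptor of the PTHLH product. PTH1R was higher in mural cells (2.90 (SE 0.42)), fibroblasts (1.77 (SE 0.27)) and T and NK cells (2.28 (SE 0.29)).

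Other genes of calcium handling also differed between classes, both in those that stood out for a member and in those that did not. Mural cells, high in ATP2A2 and ATP2B4, had 7 of 35 other genes higher and 1 lower, where 11.2% of all genes passed in either direction, with RYR2, the calcium release channel of muscle, at 3.34 (SE 0.27) and SLC8A1 at 2.58 (SE 0.30). Macrophages, high in ATP2B1, had 7 higher and 2 lower (19.6% of all genes), with HTR7, a serotonin receptor, at 3.54 (SE 0.23) and SLC8A1 at 2.87 (SE 0.23). T and NK cells, high in STIM1, had 3 higher and 7 lower (16.7% of all genes), with ATP2A3 at 2.93 (SE 0.19). Myoepithelial cells had 5 higher and 4 lower (14.4% of all genes), fibroblasts 5 and 1 (11.5%), endothelial cells 4 and 1 (13.2%), B and plasma cells 1 and 5 (12.5%), and adipocytes 0 and 6 (18.2%). In hormone-sensing nuclei, where 11.5% of all genes passed, 1 of 38 was higher, the mitochondrial uniporter subunit SMDT1 (1.11), and 3 were lower, CASQ2 (−1.57), VDR (−1.16) and RYR3 (−1.02).

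The genes whose log2(CPM + 1) ran closest to that of each member over the 10 luminal sums were picked by Pearson correlation (r), and these values describe 10 libraries that share their stage, depth and makeup. For the plasma membrane pumps they included KCNJ2 (0.939) and AQP9 (0.930) for ATP2B2, MGAT5 (0.980), DPYSL2 (0.974) and AFF1 (0.972) for ATP2B1 and TIMM8A (0.986), RHOB (0.964) and GOLM1 (0.957) for ATP2B4. For the pumps of the Golgi and the endoplasmic reticulum they were CHD6 (0.916), TMEM63A (0.911) and GSDMB (0.910) for ATP2C2, TIAM1 (0.983), TUBGCP5 (0.977) and HHAT (0.960) for ATP2C1 and DTHD1 (0.944), PRPS1 (0.935) and ROBO3 (0.932) for ATP2A2. For store-operated entry they were PLIN2 (0.799), RAPGEFL1 (0.750) and RIPOR3 (0.742) for ORAI1 and TCF7 (0.980), CRYBG2 (0.980) and MEIS3 (0.976) for STIM1, and ORAI1 had the loosest partners of any member. CASR, at a few CPM, was followed by FSHR (0.985), GFAP (0.977) and CCR7 (0.970). PTHLH was followed by CSF3R (0.960), DNASE2B (0.955) and S100A8 (0.95), of which CSF3R and S100A8 are among the neutrophil markers given above.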

How the data were processed

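The members, the gene lists and the comparisons were chosen with earlier results of these data known. Single-nucleus libraries of mammary gland (10), single-cell libraries of milk (2) and Visium sections (2) were analysed. Per the methods and labels, nuclei and cells were prepared with GEXSCOPE kits and counted with CeleScope v1.1.7, and sections with Space Ranger (the sources give more than 1 version), on Sscrofa11.1. The annotation release, and whether counting used strand, are not given in the sources used. The values in the files the authors deposited are raw UMI counts per gene and barcode, not normalized, with replicates kept apart. Free RNA and doublets had not been marked, no doublet caller was run here, and nuclei with mixed markers were handled by the alternatives below.

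Barcodes under 300 genes or over 25% mitochondrial UMIs (13 genes) were left out. A class needed at least 2 detected markers and more than any other class. UMIs were summed per library and class with at least 10 nuclei and given as CPM of that sum. The CPM were not scaled by TMM as the fits were. Ranks of libraries by CPM and fitted differences can therefore disagree, as for ATP2A2 at L0. The sums were tested with edgeR 4.0.16 (R 4.3.3, limma 3.58.1, quasi-likelihood, TMM, filterByExpr), in 1 fit over 5 stages, 1 over 9 classes and 1 over 3 luminal subgroups, the latter 2 with library as a block. A gene was called at a Benjamini-Hochberg adjusted p under 0.05 and an absolute log2 change over 1, and all p-values are two-sided. The SE of a fitted difference was derived from the test, as the absolute log2 change divided by the square root of the quasi-likelihood F. Named genes were the 10 members, the 3 genes closest to each in luminal sums, and called genes of a list of other calcium genes (up to 3 per role), to which ITPR2 was added after its value was seen. Alternatives were DESeq2 1.42.0, no filter, stricter gates and limits, ungated nuclei named by their 20 nearest gated nuclei (scikit-learn 1.9.0, 15 principal components of 2000 genes), other samples in the fit, other blocks and each library left out. On simulated data the luminal stage fit recovered 11% of log2 changes of 1.5 and 89% of changes of 3 for L0 against the mean of the other stages. For luminal nuclei against the other classes these were 100% and 100%, and for hormone-sensing against remaining luminal nuclei 98% and 100%. Genes of low count were not among those changed. The other classes, some with fewer libraries, were not simulated. Intervals were computed in Python 3.11.15 (scipy 1.17.1, pandas 2.3.3, numpy 2.4.6), and intervals and 3-UMI floors cover counting error only.

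Luminal sums had a total of at least 6712996 UMIs. Sequences and positions are from RefSeq on Sscrofa11.1, where 10 of 10 members matched by symbol. Some genes that met the rules for naming are not reported here.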

Additional observations from a re-analysis of the deposited data

Results flagged for a closer look

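A library far from the others of its class was found in 11 of 66 groups of 4 to 10 libraries (16.7%), by the gap of the highest or lowest library to its neighbour as a part of the whole range (Dixon's 95% limit). Chance marks about 1 in 20 groups of independent and alike libraries, but these groups share libraries and span 5 stages, so that rate is no measure for them. Of these, 7 were replicate 1 of L0. ATP2B2 was highest there in myoepithelial cells (159 CPM, next library 57.5) and fibroblasts (118 CPM, next 57.0). ATP2C2 was highest there in fibroblasts (139.5 CPM, next 74.1), macrophages (94.8 CPM, next 36.7) and T and NK cells (145 CPM, next 60.8). In mural cells of that library ATP2C1 was highest (644 CPM, next 278) and ATP2B1 was lowest at 0 UMIs (0 CPM, next 169.6), where 3 UMIs in the 16 nuclei of that sum would be 129 CPM, so that the gap may be smaller. In the same library CSN2 UMIs were found in fibroblasts, macrophages and T and NK cells, as given above, and the part of free RNA was not tested.

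In the other 4 groups, ORAI1 was highest in fibroblasts of replicate 1 of L20 (61.3 CPM, next library 44.0) and PTHLH in luminal nuclei of the same library (27.0 CPM, next 7.51). PTHLH was highest in endothelial cells of replicate 1 of G90 (49.2 CPM, next 22.3), as was STIM1 in its B and plasma cells (253 CPM, next 177).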

How the results depend on the processing

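The number of members called was within 1.5 times the reported one for 249 of 293 alternatives, lower in 24 and higher in 20. Values of single members were followed only for members that were called or, between stages, had an unadjusted p under 0.05. Of these values 0 turned their direction, 40 fell under the threshold and 7 passed it. Members with differences near 0, such as ATP2A2 at L0, were not among them, so the tally does not cover their direction. For L0 against the mean of the other stages (1 member called) DESeq2 called 3, no filter 2, and leaving out 1 library 0 to 2. For L20 against L0 (0 called) DESeq2 called 2 and no filter 1. Genes called depended on the tool too: DESeq2 called 807, 941, 8, 30 and 1626 genes where edgeR called 1, 0, 0, 0 and 384 (successive stages and L0 against the others), and leaving out 1 library gave 3 to 926 for the last. For mural cells (2 called) no filter and no second class with 2 markers gave 0, and at least 3 markers, naming by neighbours, no replicate block and at least 50 nuclei gave 1, with 1 to 2 as libraries were left out. For endothelial cells (0 called) at least 3 markers gave 3, and no filter, naming by neighbours, at least 50 nuclei and leaving out both L0 libraries gave 1. Requiring 3 markers gave 2 for macrophages (1 called), 2 for T and NK cells (1 called), 2 for B and plasma cells (0 called) and 1 for adipocytes (4 called). Naming by neighbours gave 1 for B and plasma cells and 2 for adipocytes. Limits of 500 genes and 5% mitochondrial UMIs gave 2 for T and NK cells and 2 for adipocytes, and leaving out 1 library gave 1 to 2 for T and NK cells. Adipocytes had 1 with no second class or at least 50 nuclei and 1 to 5 as libraries were left out. Hormone-sensing nuclei (2 called) had 1 with no second class, 0 without the replicate block, and 1 to 2 as libraries were left out. The cause of these changes was not tested. Thinning milk cells to 1000 UMIs moved the shares with a PTHLH UMI to 0.219% (L0) and 1.94% (L20), with an ATP2B2 UMI to 2.25% and 0.969%, with an ATP2C2 UMI to 4.81% and 0.808%, and with an ORAI1 UMI to 20.9% and 7.03%.

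Replicate numbers did not pair the libraries: deviations of same-numbered libraries correlated between −0.427 and 0.274 over 10128 genes. With the replicate number as a block, ATP2B2 at L0 was 3.29 (adjusted p = 0.0497), 1 member was still called at L0 and 0 between successive stages, and 182 genes were called at L0. With 2 libraries per stage, most changes of 1.5 on the log2 scale would be missed in luminal nuclei.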

Other observations

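In milk, luminal cells with progenitor markers could be set beside the remaining luminal cells, with 1 library per day and no test. PTHLH was at 101 CPM (88.3 to 116, exact 95% Poisson interval) in 95 progenitor cells of the L20 library and at 51.3 CPM (46.4 to 56.6) in 1248 remaining cells, but at 1.57 and 2.37 CPM in the L0 library. CD14, one of the progenitor markers, was also highest in macrophages of the gland (69.8 CPM, against 42.4 in luminal nuclei), and 417 of the 621 PTHLH UMIs of luminal cells at L20 lay in cells with 2 neutrophil markers, whose part in this was not tested. ORAI1, the store-operated channel, was at 205 and 151 CPM at L20 and at 299.7 and 241 CPM at L0. ATP2B2, the apical pump, was at 52.8 and 45.7 CPM at L20 and at 19.4 and 20.3 CPM at L0, with intervals that overlapped between the subgroups on both days.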
